A study of Mus musculus with 4 samples.

Results

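The miR-183, miR-96 and miR-182 cluster was followed through its 3 guide strands, mmu-miR-183-5p, mmu-miR-96-5p and mmu-miR-182-5p (written below without the species prefix), in small RNA libraries from mouse liver. The guides were taken by name from the count files and make up 3 of the 1907 mature miRNAs counted there. All 3 passed the filter on low counts. The TAA group comprised 2 livers of C57BL/6 mice that had been injected intraperitoneally with thioacetamide (TAA), a hepatotoxin used to produce liver fibrosis in rodents, at 200 mg/kg, 3 times weekly over 10 weeks. The control group comprised 2 livers of C57BL/6 mice labelled as controls, and the labels do not say whether these mice received vehicle. All mice were 15 weeks old, no transgene or deletion is named, and the design text calls the libraries of a group biological replicates without naming the animals. P-values therefore measure the spread between these samples.

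MicroRNAs guide Argonaute proteins to messenger RNAs, chiefly through the seed, bases 2 to 8 of the mature strand. The hairpins of miR-183, miR-96 and miR-182 are processed from a common primary transcript that is best known in sensory organs, where photoreceptors and hair cells of the inner ear express it strongly. Changes in the seed of human miR-96 cause hereditary deafness, and the cluster is often raised in human epithelial tumours, hepatocellular carcinoma among them. In human cancer cells all 3 guides have been reported to repress FOXO1, a transcription factor that in hepatocytes drives gluconeogenic genes.

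The mature sequences are shown because the guides resemble each other, which bears on what each count measures. They were taken from RefSeq (GRCm38.p6), read 5′ to 3′ from the minus strand of chromosome 6, and the capitals mark the seed.
miR-183-5p (chr6:30169711-30169732): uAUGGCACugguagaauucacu
miR-96-5p (chr6:30169506-30169528): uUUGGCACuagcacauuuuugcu
miR-182-5p (chr6:30165962-30165986): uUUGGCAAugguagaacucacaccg
miR-183-3p (chr6:30169672-30169693): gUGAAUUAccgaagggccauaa
miR-96-5p and miR-182-5p began with the same 7 bases and so shared bases 2 to 7 of the seed. miR-183-5p and miR-96-5p shared a run of 7 bases that started at base 3 of each. Over the whole strand the closest pair was miR-183-5p and miR-182-5p, which had the same base at 18 of 22 positions compared from the 5′ end, against 13 of 22 for miR-183-5p and miR-96-5p and 12 of 23 for miR-96-5p and miR-182-5p. No other miRNA of the count files shared bases 2 to 7 with a guide among the 1623 names found in the RefSeq table.

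The hairpins lie within 3.82 kb (GRCm38, which is mm10). Mir183 is at chr6:30169668-30169737, Mir96 at chr6:30169446-30169551 and Mir182 at chr6:30165918-30165992. Mir183 and Mir96 are separated by 116 bases, and Mir96 and Mir182 by 3453 bases. GENCODE M21 annotates no gene over them on either strand. The span lies inside that of the RefSeq long non-coding RNA Mirc35hg, and the nearest protein-coding genes are Nrf1, 12.5 kb away, and Ube2h, 41.6 kb away.

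The libraries held 43836911 and 48878003 miRNA counts in TAA-treated liver, against 42609845 and 46224018 in control liver. miR-122-5p, the defining miRNA of hepatocytes, was abundant in all 4, at 17376 and 17500 CPM in TAA-treated liver and 18285 and 21607 CPM in control liver. CPM stands for depth-scaled counts, adjusted by TMM factors, and mean ± SD values have n = 2 libraries per group. Of 644 miRNAs tested with edgeR's quasi-likelihood test, 107 changed in TAA-treated liver (16.6%), 90 higher (14.0%) and 17 lower (2.64%), at an adjusted p under 0.05. Control 1 stood apart in miRNAs of pancreas, miR-375-3p among them. miR-375-3p measured 10.2 and 9.38 CPM in TAA-treated liver, 103.3 CPM in control 1 and 8.47 CPM in control 2. The cluster's values without control 1 are therefore given below.

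None of the 3 guides passed the test between TAA-treated and control liver. miR-182-5p was the most abundant, with 866 and 1233 CPM in TAA-treated liver and 1451 and 866 CPM in control liver. miR-183-5p had 92.9 and 135 CPM in TAA-treated liver and 158 and 95.7 CPM in control liver. miR-96-5p, the scarcest guide, had 8.03 and 12.8 CPM in TAA-treated liver and 15.5 and 8.44 CPM in control liver. The same 2 libraries, TAA 2 and control 1, were high for every guide, and TAA 1 and control 2 were low. The groups thus overlapped for all 3 guides, whereas they did not overlap for 55.3% of the 644 miRNAs tested.

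**Figure D1:**
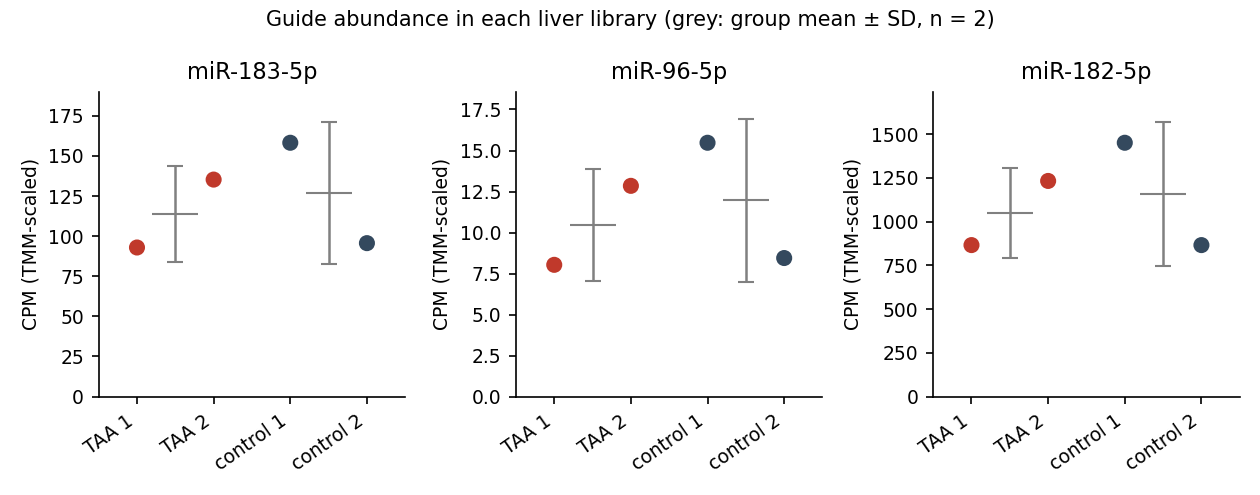
CPM (y axis, from 0) of miR-183-5p, miR-96-5p and miR-182-5p in each library (x axis), with points for libraries and grey bars for group mean ± SD (n = 2). TAA 2 and control 1 lie above TAA 1 and control 2 for each guide, and the SD bars of the groups overlap.

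The group means differed by less than the spread within either group. miR-182-5p averaged 1049 ± 259 CPM in TAA-treated and 1158 ± 414 CPM in control liver, a log2 fold change of -0.14 (SE 0.25, 95% interval -0.72 to 0.43, edgeR adjusted p = 0.803). miR-183-5p averaged 114 ± 29.9 CPM in TAA-treated and 127 ± 44.3 CPM in control liver, a log2 fold change of -0.15 (SE 0.26, 95% interval -0.76 to 0.45, edgeR adjusted p = 0.798). miR-96-5p averaged 10.4 ± 3.40 CPM in TAA-treated and 11.96 ± 4.97 CPM in control liver, a log2 fold change of -0.20 (SE 0.33, 95% interval -0.95 to 0.56, edgeR adjusted p = 0.794). The intervals leave room for moderate changes in either direction.

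The median log2 fold change of the guides was -0.15, against 0.00 over all 644 miRNAs. The number of guides past the threshold was 0 of 3 with edgeR, DESeq2 and limma-voom, and 0 had an unadjusted p under 0.05 with edgeR. The direction was set by single libraries. Without control 1 the log2 fold changes of miR-183-5p, miR-96-5p and miR-182-5p were 0.24, 0.29 and 0.26, and without TAA 1 they were 0.09, 0.10 and 0.09. Without control 2 they were -0.48, -0.57 and -0.48, and miR-182-5p then passed as lower (edgeR adjusted p = 0.0301), in a fit where 4.78% of 690 miRNAs did so. Without TAA 2 they were -0.44, -0.57 and -0.41, with none past the threshold.

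**Figure D2:**
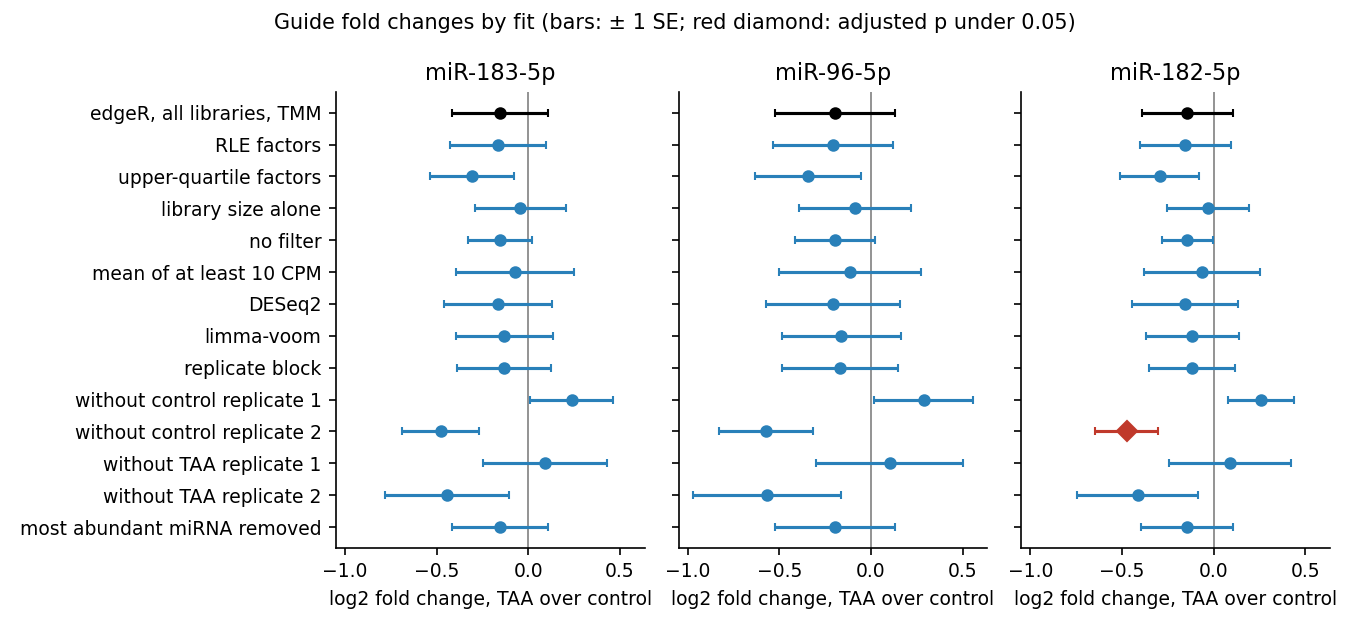
Log2 fold change of TAA-treated over control liver (x axis) for each guide under each fit (y axis), with bars of ± 1 SE and red diamonds for an adjusted p under 0.05. Fits that keep all 4 libraries give values from -0.34 to -0.03, and fits that leave out control 1 or TAA 1 give values above 0.

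Although its level varied, the make-up of the cluster was nearly constant. miR-182-5p held 89.6% and 89.3% of the summed counts of the 3 guides in TAA-treated liver and 89.3% and 89.3% in control liver. miR-183-5p held 9.61% and 9.80% in TAA-treated liver and 9.74% and 9.86% in control liver. miR-96-5p held 0.831% and 0.930% in TAA-treated liver and 0.952% and 0.871% in control liver. For each guide the 95% Wilson intervals of all 4 libraries overlapped. The mean share of miR-182-5p was 89.4% ± 0.20 in TAA-treated and 89.3% ± 0.028 in control liver, and an exact two-sided permutation test gave p = 0.667 for each guide, where 0.333 is the smallest p that 2 libraries against 2 allow.

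**Figure D3:**
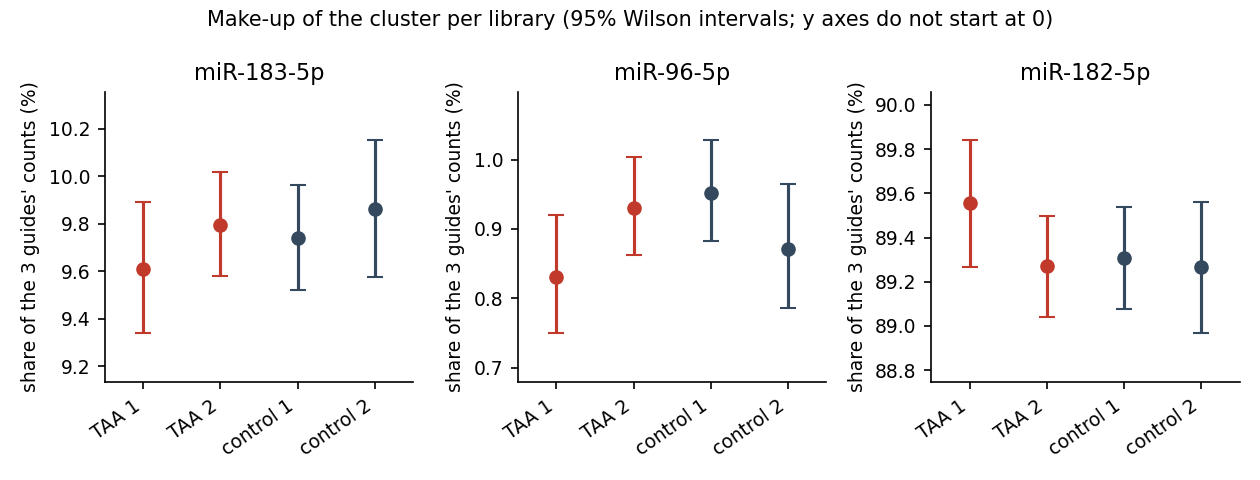
Share of the 3 guides' summed counts (y axis, percent, not from 0) taken by each guide in each library (x axis), with 95% Wilson intervals. The intervals of the 4 libraries overlap for each guide.

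The order miR-182-5p, miR-183-5p, miR-96-5p held in every library. There were 9.32 and 9.11 counts of miR-182-5p per count of miR-183-5p in TAA-treated liver, against 9.17 and 9.05 in control liver. This ratio spread by 1.03-fold over the 4 libraries, with an SD of its log2 of 0.018, where counting error alone gives 0.021. The ratio of miR-183-5p to miR-96-5p was 11.6 and 10.5 in TAA-treated liver and 10.2 and 11.3 in control liver, an SD of 0.085 on the log2 scale against 0.069 from counting. The ratio of miR-182-5p to miR-96-5p was 108 and 95.96 in TAA-treated liver and 93.8 and 103 in control liver, an SD of 0.092 against 0.066. Both ratios with miR-96-5p thus spread somewhat more than counting error alone gives. The guides are 22, 23 and 25 bases long, so their counts are comparable per molecule, but adapter ligation favours some sequences and was not measured here.

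Other neighbouring hairpins gave a scale for this steadiness, in a description chosen after the values were seen. Among pairs of hairpins within 10 kb on the same strand, each with an arm of at least 10 CPM that has 1 locus in the RefSeq table, the 57 pairs outside the cluster had log2 ratios with a median SD of 0.16 and a range of 0.044 to 0.61. The pair of miR-182-5p and miR-183-5p had the lowest SD of the 60 pairs. The pairs with miR-96-5p stood at places 13 and 17. Deeper counts give a steadier ratio, and the 60 pairs were not matched on depth.

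The cluster varied more between libraries of the same group than most miRNAs did. Summed over the guides it took 0.100% and 0.145% of miRNA counts in TAA-treated liver and 0.161% and 0.0897% in control liver, with 95% Wilson intervals of 0.0993% to 0.101% and 0.144% to 0.146% for the TAA libraries and of 0.160% to 0.163% and 0.0888% to 0.0906% for the controls. TAA 2 exceeded TAA 1 by 1.42-fold for miR-182-5p, 1.46-fold for miR-183-5p and 1.60-fold for miR-96-5p. Control 1 exceeded control 2 by 1.68-fold, 1.65-fold and 1.83-fold for the same guides. In bulk liver, fewer cells of a type and less RNA per cell cannot be told apart.

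Over the 273 miRNAs with a mean of at least 10 CPM, the median difference between libraries of a group was 0.13 (TAA) and 0.15 (control) on the log2 scale, regardless of sign. For miR-182-5p the differences were 0.51 between TAA 2 and TAA 1 and 0.74 between control 1 and control 2, and 7.33% and 3.66% of the 273 differed as far. Only 4 of the 273 differed as far in both groups and in the same direction: miR-182-5p itself, miR-96-5p, miR-451a of red blood cells and miR-582-3p. miR-183-5p, at 0.54 and 0.73, was just below miR-182-5p in the controls. The guides are counted from separate sequences, but they come from 1 locus and are not independent of each other.

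**Figure D4:**
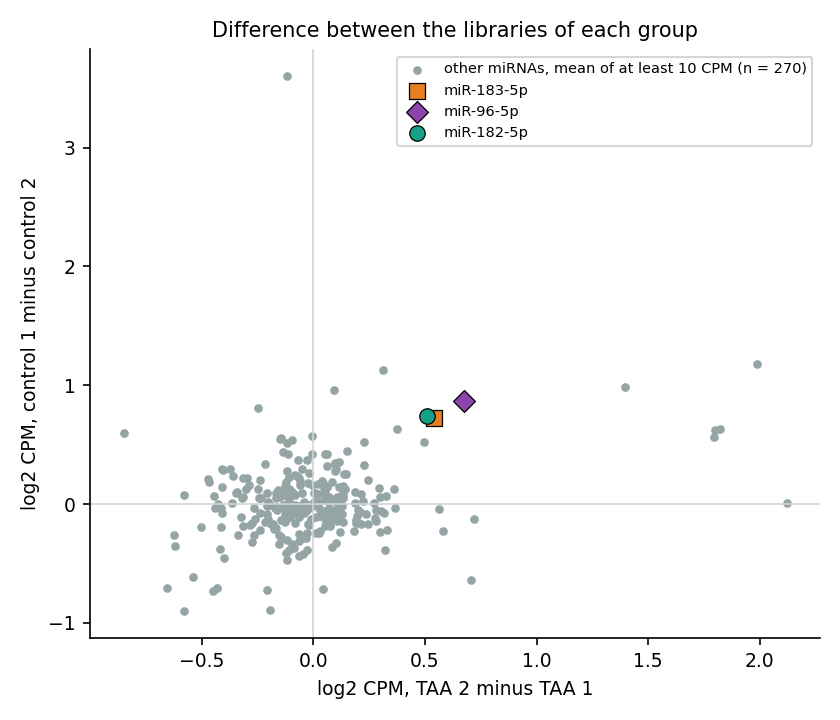
Difference in log2 CPM between TAA 2 and TAA 1 (x axis) and between control 1 and control 2 (y axis) for the 3 guides and 270 other miRNAs with a mean of at least 10 CPM. The guides sit together at 0.51 to 0.67 on the x axis and 0.73 to 0.87 on the y axis, outside the bulk of points.

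The strands opposite the guides were almost absent. miR-183-3p had 39 and 54 counts in TAA-treated liver and 51 and 37 in control liver, and was the one such strand to pass the filter. It followed the same order of libraries as its guide, with 0.858 and 1.05 CPM in TAA-treated liver and 1.205 and 0.866 CPM in control liver (a difference of -0.11 on the log2 scale with an SE of 0.37; adjusted p = 0.900 by edgeR). miR-182-3p had 3 and 2 counts in TAA-treated liver and 5 and 0 in control liver, and miR-96-3p had 1 and 1 in TAA-treated liver and 0 and 1 in control liver. A count of 0 allows up to 0.0704 CPM in control 1 and 0.0649 CPM in control 2, with no TMM factor and for counting error only. Over all libraries the 5p strand of miR-183 outnumbered its 3p strand 121-fold. The 3 counts of miR-96-3p stood against 2040 of miR-96-5p, and the 10 counts of miR-182-3p against 201035 of miR-182-5p.

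Strand choice at the miR-183 hairpin did not change detectably. With 0.5 added to each count, the log2 of 5p over 3p was 6.74 and 6.99 in TAA-treated liver and 7.02 and 6.77 in control liver. The difference of -0.03 (SE 0.20, 95% interval -0.52 to 0.46, limma adjusted p = 0.982) was smaller than its error. None of the 150 hairpins tested passed with limma (0%), and 5 had an unadjusted p under 0.05. Control 1 and TAA 1 decided the sign, with 0.098 without control 1 and 0.097 without TAA 1. The other 2 hairpins had too few 3p counts to be tested.

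The likeness of the guides' patterns was measured as the distance between log2 CPM profiles over the 4 libraries, each centred on its mean. Among the 272 other miRNAs of at least 10 CPM, the nearest to miR-183-5p was miR-182-5p, at a distance of 0.031, followed by miR-96-5p at 0.14, where the median miRNA stood at 0.72. For miR-96-5p and for miR-182-5p the nearest were likewise the other 2 guides. The third nearest to each was miR-802-3p, at 0.23 from miR-183-5p, 0.31 from miR-96-5p and 0.25 from miR-182-5p. It is encoded on chromosome 16 (chr16:93369775-93369796, GRCm38.p6), by a hairpin known for its rise in the liver of obese mice. With 4 libraries such distances describe these samples alone.

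miR-802-3p had 146 and 206 CPM in TAA-treated liver and 259 and 180 CPM in control liver. Its other arm, miR-802-5p, was added after its values were seen, and had 366 and 474 CPM in TAA-treated liver and 716 and 463 CPM in control liver. TAA 2 lay above TAA 1 and control 1 above control 2 in both arms, as in the cluster, but TAA 2 and control 2 were closer together in miR-802. Neither arm passed the test (edgeR adjusted p = 0.429 and 0.208).

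**Figure D5:**
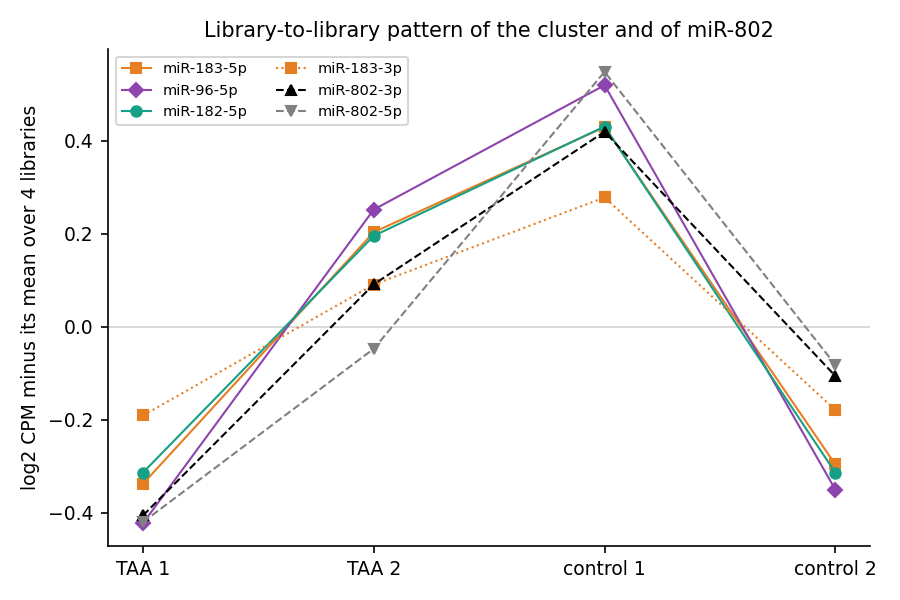
Log2 CPM minus its mean over the 4 libraries (y axis) for the 3 guides, miR-183-3p and both arms of miR-802 in each library (x axis), with lines joining the points of 1 miRNA for legibility. The guides overlie each other, with peaks in control 1 and TAA 2, and the miR-802 arms share the peak in control 1.

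Markers of other cell types were set beside the cluster's order of libraries. The 4 erythroid miRNAs (miR-451a, both arms of miR-144 and miR-486a-5p) summed to 530 and 1926 CPM in TAA-treated liver and 325 and 196 CPM in control liver. Their sum had the same order within each group as the guides, and TAA 2 exceeded TAA 1 by 3.63-fold where the guides differed by 1.43-fold. All 4 passed as higher in TAA-treated liver with edgeR, where 14.0% of all miRNAs tested did so. These calls rested on TAA 2 and on the tool. Without TAA 2, 0 of the 4 passed and the log2 fold change of miR-451a was 0.93 against 2.23 with all libraries (edgeR adjusted p = 0.477 and 0.0394). With DESeq2 0 of the 4 passed, with limma-voom miR-486a-5p alone did, and at a mean of at least 10 CPM 0 of the 3 tested passed. The 3 pancreas miRNAs were high in control 1 alone. The 2 of them that were tested summed to 10.4 and 9.38 CPM in TAA-treated liver and 106 and 8.47 CPM in control liver, and miR-216a-5p was at 0 counts in TAA 2 and control 2 and miR-217-5p in control 2. Of the libraries with high guides, control 1 was high in these miRNAs and TAA 2 was not.

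The remaining marker lists ran differently. The 5 miR-200 family miRNAs of biliary and other epithelia summed to 360 and 333 CPM in TAA-treated liver and 387 and 428 CPM in control liver. The 5 leukocyte miRNAs summed to 1850 and 1628 CPM in TAA-treated liver and 874 and 1384 CPM in control liver. In both sums TAA 2 lay below TAA 1 and control 1 below control 2, opposite to the guides, and so did 4 of the 5 members of each list. The exceptions were miR-155-5p, which had the guides' order in both groups (12.0 CPM in TAA 2 and 11.02 in TAA 1, 6.24 in control 1 and 5.71 in control 2), and miR-200c-3p, which had it between the controls. Hepatocyte, endothelial and mesenchymal sums differed by 1.03-fold, 0.858-fold and 0.738-fold between TAA 2 and TAA 1, and by 0.918-fold, 0.868-fold and 0.986-fold between control 1 and control 2. The mesenchymal sum was mostly miR-143-3p. The other 3 mesenchymal miRNAs, miR-145a-5p, miR-199a-3p and miR-214-3p, were 1.75-fold, 1.22-fold and 1.16-fold higher in control 1 than in control 2, as the guides were, but lower in TAA 2 than in TAA 1. Of these lists, miR-150-5p, miR-155-5p and miR-214-3p passed as higher in TAA-treated liver (edgeR adjusted p = 0.00024, 0.0102 and 0.0354), where 14.0% of all miRNAs tested did so. miR-214-3p did not pass with upper-quartile factors or at a mean of at least 10 CPM. Its call was also lost without control 2, without TAA 1 and without TAA 2. The log2 fold changes there were 0.54, 0.48 and 0.80, against 0.65 with all libraries. Without control 1 it kept the call, at 0.75. miR-155-5p lost its call without TAA 1 and without TAA 2, and kept it without either control. From the miR-200 list, miR-141-3p and miR-200c-3p passed as lower, as given below. Reads aligned outside annotated miRNAs made up 24.3% and 26.4% in TAA-treated liver and 23.9% and 22.8% in control liver, in the guides' order within each group. The part of erythroid RNA, pancreas RNA or this read fraction in the guides' levels was not tested.

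Of the 7 other miRNAs within 2 Mb of the cluster, all tested, 1 rose, 1 fell and 5 did not pass, where 14.0% of all miRNAs tested rose and 2.64% fell. The median log2 fold change over the 7 was -0.14. miR-29b-3p, of the collagen-repressing miR-29 family, fell to 109 and 99.0 CPM in TAA-treated liver, against 145 and 159 CPM in control liver, a difference of -0.54 on the log2 scale (SE 0.14, adjusted p = 0.0335 with edgeR). It is also encoded on chromosome 1, so its counts cannot be assigned to this region. miR-129-5p rose to 3.92 and 3.84 CPM in TAA-treated liver, against 1.91 and 1.66 CPM in control liver (1.12 on the log2 scale, SE 0.22, adjusted p = 0.0104 with edgeR), and has a further locus on chromosome 2. Neither passed without TAA 1 or without TAA 2, and miR-29b-3p also failed without control 2 (adjusted p = 0.0997), with library size alone and at a mean of at least 10 CPM.

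miR-335-5p, miR-335-3p, miR-29a-3p, miR-29a-5p and miR-29b-1-5p had log2 fold changes of 0.26, 0.02, -0.28, -0.14 and -0.45 without passing. The first pair comes from an intron-encoded hairpin of Mest, 571.6 kb from the cluster. Of the 7 neighbours, miR-335-3p and miR-29b-1-5p shared the guides' order of libraries within each group, over a narrower range. The share of all miRNAs with this order was not counted, so nothing particular to neighbours is read from it. miR-335-3p had 111 and 128 CPM in TAA-treated liver and 121 and 114 CPM in control liver, and miR-29b-1-5p had 1.74 and 2.05 CPM in TAA-treated liver and 2.76 and 2.41 CPM in control liver.

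Of 7 epithelial miRNAs, the group that shares enrichment in epithelia with the cluster, 3 fell, 0 rose and 4 did not pass. Of all miRNAs tested, 2.64% fell and 14.0% rose. The median log2 fold change over the 7 was -0.43. miR-203-3p, an epidermal miRNA and the most abundant of them, fell to 1543 and 1623 CPM in TAA-treated liver, against 2098 and 2177 CPM in control liver, a difference of -0.43 on the log2 scale (SE 0.10, adjusted p = 0.0248 with edgeR). miR-141-3p and miR-200c-3p, whose family represses the transcription factors Zeb1 and Zeb2, had log2 fold changes of -0.72 (SE 0.17) and -0.85 (SE 0.22). miR-141-3p fell to 54.6 and 51.4 CPM in TAA-treated liver, against 76.5 and 98.7 CPM in control liver, and miR-200c-3p to 4.27 and 3.72 CPM in TAA-treated liver, against 8.22 and 6.20 CPM in control liver. In these 3, named because they passed, the groups did not overlap, as in 55.3% of the 644 miRNAs tested. The calls did not hold with either TAA library left out, nor at a mean of at least 10 CPM, where 5 of the 7 were tested. miR-203-3p also failed with library size alone (edgeR adjusted p = 0.104) and without control 2 (0.0627), miR-141-3p without control 2 (0.0728) and miR-200c-3p without control 1 (0.0824). The median of the list was -0.21 without control 1 and -0.08 at a mean of at least 10 CPM. miR-205-5p and miR-200b-3p had log2 fold changes of -0.86 (SE 0.50) and -0.16 (SE 0.13) without passing. The value of miR-205-5p rested on control 1, with 2.55 and 2.42 CPM in TAA-treated liver and 7.06 and 1.96 CPM in control liver. A difference in response between the cluster and these miRNAs was not tested.

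Of 6 sensory and neuroendocrine miRNAs 5 were tested and 0 passed with edgeR, where 16.6% of all miRNAs tested did. Their median log2 fold change was -0.10, and it moved with the fit. It was -0.28 with upper-quartile factors, 0.03 with library size alone and 0.19 without control 1. At a mean of at least 10 CPM, where 2 were tested, it was -1.23. In 4 alternatives (upper-quartile factors, library size alone, no filter and without control 2) 1 passed as lower, and without control 1 there was 1 that passed as higher. miR-375-3p was the most abundant, through control 1. miR-211-5p, found in pigment cells and retina, had 2.84 and 2.01 CPM in TAA-treated liver and 2.95 and 1.10 CPM in control liver. miR-7a-5p, an endocrine and neural miRNA, had 11.7 and 10.99 CPM in TAA-treated liver and 10.8 and 13.6 CPM in control liver. miR-124-3p, the defining neuronal miRNA, was at 0 and 5 counts in TAA-treated liver and at 0 and 2 counts in control liver. In every library miR-182-5p and miR-183-5p were above each of these miRNAs. miR-96-5p lay below miR-7a-5p in TAA 1 and control 2 and above it in TAA 2 and control 1. Against miR-375-3p, miR-96-5p was lower in TAA 1 and control 1 and higher in TAA 2. In control 2 miR-96-5p and miR-375-3p were about level, at 8.44 and 8.47 CPM.

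Of 6 other miRNAs reported to repress Foxo1, 5 were tested and 0 passed with edgeR, where 16.6% of all miRNAs tested did. Their median log2 fold change was 0.12, and it was -0.06 with upper-quartile factors. With limma-voom, library size alone or no filter 1 passed as higher, and 2 passed without control 2. miR-27a-3p, the most abundant, had 852 and 703 CPM in TAA-treated liver and 677 and 756 CPM in control liver, below miR-182-5p in every library. miR-223-3p, a myeloid miRNA, had 56.7 and 49.6 CPM in TAA-treated liver and 30.8 and 57.0 CPM in control liver. miR-370-3p had 29 and 26 counts in TAA-treated liver and 0 and 8 counts in control liver. The messenger RNA targets were not measured in these libraries.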

How the data were processed

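The values deposited by the authors are unnormalized counts of reads for each mature miRNA, with a file for each library. The submitters' processing notes name Bowtie, HTSeq and the mm10 build. Not given in the sources used here are versions, trimming, the miRNA release and how reads matching several loci were treated. The summary row for multiply aligned reads is 0 in all 4 files. Each file has 1907 miRNAs and 5 summary rows, kept out of library sizes; miRNA counts made up 65.4% to 68.7% of reads. No molecular identifiers are stated, so intervals cover counting error only.

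The quasi-likelihood F test of edgeR 4.0.16 (R 4.3.3), with TMM factors and the filterByExpr filter, was run over 644 miRNAs, and p-values adjusted by Benjamini-Hochberg were called under 0.05. The SE is the size of the log2 fold change divided by the square root of F, and 95% intervals use the moderated degrees of freedom. Arm ratios were tested with limma 3.58.1 over 150 hairpins whose arms each averaged 20 counts or more. Both procedures were tested on simulated data. There edgeR recovered 63.3% of 2-fold and 99.0% of 4-fold changes, with 8 false calls. The arm test recovered 20 of 20 4-fold changes, with 0 false calls. Alternatives were other normalization factors, other filters, limma-voom, DESeq2 1.42.0, removal of the most abundant miRNA, each library left out in turn and a block for replicate number. The 3 guides and the lists were chosen with earlier results of these data known. Named miRNAs are the guides, their other arms, neighbours within 2 Mb, and of each list the most abundant, those past the threshold and up to 2 more by smallest p, plus the 3 nearest profiles per guide. Replicates differed by more than read sampling, with a chi-square per degree of freedom of 324 between the TAA libraries and 237 between the controls. Batches are not given in the labels.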

Additional observations from a re-analysis of the deposited data

How the results depend on the processing

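In the 9 alternatives that keep all 4 libraries, the log2 fold changes of the guides stayed below 0, between -0.34 and -0.03, with 0 of 3 past the threshold. Leaving out 1 library moved them from -0.48 to 0.24 for miR-183-5p, from -0.57 to 0.29 for miR-96-5p and from -0.48 to 0.26 for miR-182-5p, with 0 to 1 guides past the threshold. The values above 0 came without control 1 and without TAA 1; each such fit has 1 library in a group, whose spread is taken from the other. The difference in the miR-183 arm ratio ran from -0.16 to 0.098 in the same fits. It has no value at a minimum of 100 counts in each arm, which leaves miR-183 out. Leaving out a library cannot move a share's group mean by more than its SD with 2 libraries a group, so these values say nothing about stability. The difference in share turned sign for miR-96-5p without control 1 (0.0098 percentage points) and without TAA 1 (0.019), and for miR-182-5p without TAA 1 (-0.016).

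The number of miRNAs that changed, 107, was 49 to 131 with 1 library left out and 27 of 273 at a mean of at least 10 CPM, where fewer were tested. Upper-quartile factors moved the median of all miRNAs to -0.17, where 72.2% of calls were higher against 84.1%, and library size alone to 0.12; the guides' median was -0.31 and -0.04 there.

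With the replicate block the guides had log2 fold changes of -0.13, -0.17 and -0.12, and 110 miRNAs changed. miR-29b-3p lost its call there (adjusted p = 0.0542 with edgeR). Deviations of same-numbered libraries had a correlation of -0.053 over the 644 miRNAs, so the numbers are not taken to pair them.

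With 2 libraries a group, the 95% intervals of the guides span more than 1 log2 unit, which limits what the comparison can show; depth does not, except for the 3p strands.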
